A study of Mus musculus with 405 samples.

Results

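The 7 pesticides that a screen of mouse cortical cultures had placed in a common expression cluster were compared in detail against vehicle. They were azinphos-methyl, boscalid, cyhalofop-butyl, fosthiazate, methidathion, metsulfuron and thiophanate, 7 of the 297 chemicals in the table of the screen. Each was given at 10 μM for 24 h and sequenced as 1 library, so they are 7 of 344 libraries of treated cultures, and the reference was 49 libraries of cultures given the solvent, dimethyl sulfoxide. The authors had grouped these chemicals on the same expression values that are described here, so every difference between them and vehicle is a description and not a test. The same holds for chemicals outside the cluster, which the grouping left out by these values.

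The cultures came from the cortex of mouse embryos, from C57BL/6J dams mated to CAST/EiJ males, and the labels date the embryos at day 15. Vehicle and treated cultures alike had received uridine 5'-triphosphate and 5-fluoro-2'-deoxyuridine against dividing cells, and were exposed on day 7 in culture. The labels require an RNA integrity number above 7, and the value of each library was not analysed here. The table gives log10 deviations of polyadenylated RNA from a centre for each of 13304 genes, after the authors had removed effects of culture and sequencing batch. They were converted to log2. No counts are given for these libraries, so their depth and the level of a gene are unknown, and intervals for counting error could not be computed.

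The chemicals have no common target. Azinphos-methyl, fosthiazate and methidathion are organophosphates, which block acetylcholinesterase. Boscalid blocks succinate dehydrogenase of the respiratory chain in fungi. Cyhalofop-butyl, an aryloxyphenoxypropionate, blocks acetyl-CoA carboxylase of grasses, and metsulfuron, a sulfonylurea, blocks a plant enzyme of amino acid synthesis that animals lack. Thiophanate is a fungicide of the benzimidazole type, whose active forms bind fungal tubulin. The genes that mark the cluster encode proteins of the neuronal membrane. NMDA receptors are glutamate-gated channels built from an obligatory subunit, the product of Grin1, with subunits such as those of Grin2a and Grin2b, and they admit calcium at excitatory synapses. Kcna3 encodes a voltage-gated potassium channel.

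Grin2b was far below vehicle in every library of the cluster. The deviation was -5.39 with metsulfuron, -2.96 with fosthiazate, -2.86 with azinphos-methyl, -2.49 with cyhalofop-butyl, -2.01 with boscalid, -1.33 with methidathion and -1.31 with thiophanate on the log2 scale. The 49 vehicle libraries lay between -0.56 and 1.36, with a median of -0.022, and did not overlap with any of the 7. The mean was -2.62 ± 1.39 (SD, n = 7) with the chemicals and 0.062 ± 0.38 (SD, n = 49) with vehicle, a mean difference of -2.68, or 6.42-fold. It was the second lowest difference of all genes. Grin2b lies on the minus strand of chromosome 6, from 135679844 to 136123529 of the mm9 build. Whether fewer cells expressed a gene or each cell held less of its RNA cannot be told apart in these bulk cultures.

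Kcna3 did not overlap with vehicle either. Its deviation was -1.92 with fosthiazate, -1.72 with both boscalid and metsulfuron, -1.37 with azinphos-methyl, -0.92 with cyhalofop-butyl, -0.84 with thiophanate and -0.78 with methidathion. Vehicle libraries ranged from -0.72 to 0.72 with a median of 0.021. The gap to the lowest vehicle library was thus narrow for methidathion and wide for fosthiazate. Kcna3 is a gene without introns in the annotation used, on the plus strand of chromosome 3 from 106839080 to 106841047.

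Grin2a was lower than the vehicle median in all 7 libraries but its ranges overlapped. The values were -1.47 with fosthiazate, -1.45 with boscalid, -1.32 with metsulfuron, -1.19 with methidathion, -0.92 with cyhalofop-butyl, -0.58 with azinphos-methyl and -0.55 with thiophanate. Vehicle libraries reached down to -1.24 and up to 1.34, with a median of 0.24, so that only 3 of the 7 lay below all of them. Grin2a encodes the subunit that gains weight over Grin2b as cortical synapses mature. It spans 9577803 to 9995014 on the minus strand of chromosome 16.

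The cholinergic receptor genes Chrm2, which encodes a muscarinic receptor, and Chrna7, which encodes a subunit of a nicotinic channel, overlapped more. Chrm2 was -1.83 with metsulfuron, -1.59 with boscalid, -1.23 with azinphos-methyl, -1.01 with methidathion, -0.48 with cyhalofop-butyl, -0.44 with fosthiazate and -0.32 with thiophanate. In vehicle it lay between -0.90 and 1.18, and 4 of the 7 libraries were below that range. Chrna7 was -1.46 with boscalid, -1.03 with metsulfuron, -0.98 with fosthiazate, -0.59 with azinphos-methyl, -0.48 with methidathion, -0.34 with cyhalofop-butyl and 0.11 with thiophanate. Its vehicle range was -0.60 to 0.94, so 3 libraries lay below it and thiophanate lay above the vehicle median. The order of the chemicals was not the same for the 5 genes. Metsulfuron was lowest for Grin2b and Chrm2, fosthiazate for Grin2a and Kcna3, and boscalid for Chrna7.

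**Figure D1:**
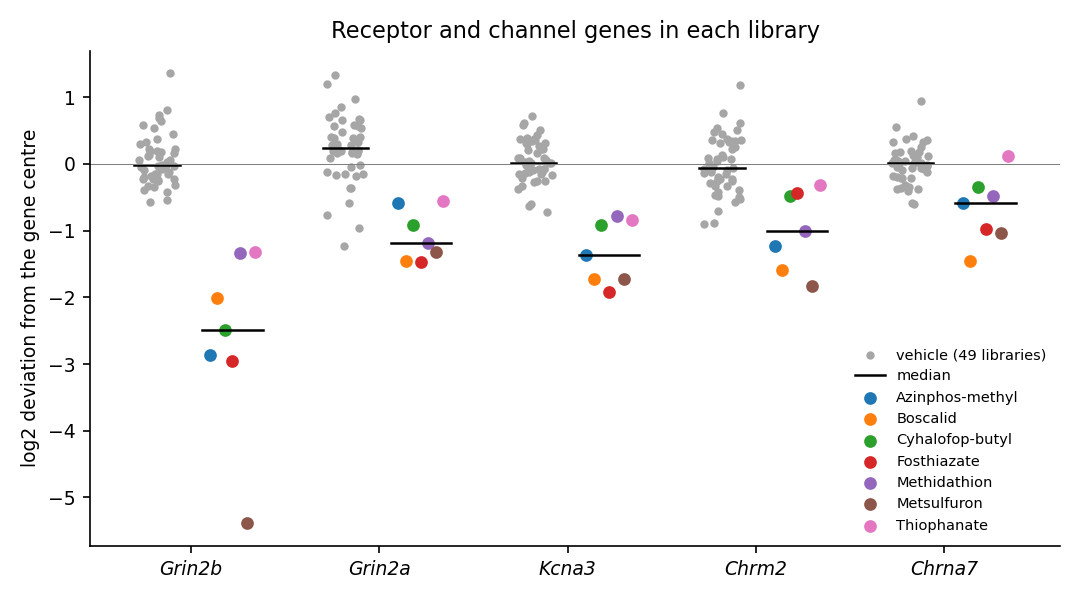
Log2 deviation (y axis) of Grin2b, Grin2a, Kcna3, Chrm2 and Chrna7 in each library, with 49 vehicle libraries in grey, the 7 chemicals in colour and a black line at each median. All 7 chemicals lie below every vehicle library for Grin2b and Kcna3, whereas the groups overlap for the other genes, and metsulfuron at -5.39 stands apart for Grin2b.

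As a yardstick for size against spread, limma was fitted over all 13304 genes and a gene was called at a Benjamini-Hochberg adjusted threshold of 0.05. By this measure 2113 genes (15.9%) were called lower and 1482 (11.1%) higher with the 7 chemicals. Without a model, 1911 genes (14.4%) lay below the vehicle median in all 7 libraries and 1295 (9.73%) above it. In 142 genes (1.07%) all 7 libraries were below the lowest vehicle library, and in 5 genes (0.0376%) they were above the highest. The grouping used these values, so nothing is read from the counts beyond their size.

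The lowest genes were of several kinds. After Tsix, at a mean difference of -2.71, and Grin2b, they included Zbtb20 at -2.26, a transcription factor gene. Zbtb37 at -2.15, Dnmt3aos at -2.05, the diacylglycerol kinase gene Dgkh at -1.81, the co-chaperone gene Dnajb14 at -1.76, the scramblase-related gene Xkr4 at -1.75 and Tcp11l1 at -1.73 followed. Of these genes, Tsix, Grin2b, Zbtb37, Dgkh, Xkr4 and Tcp11l1 lay below every vehicle library in all 7. Zbtb20, Dnajb14 and Dnmt3aos did so in 5, 6 and 2 libraries.

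Tsix and Dnmt3aos are transcribed across another gene on the opposite strand. Whether the authors' counting used strand is not stated, so their reads cannot be told apart from those of the partner. Xist, the partner of Tsix, had a mean difference of -0.75 and lay between -1.48 and -0.21 with the chemicals, against -0.84 to 0.43 in vehicle. Dnmt3a, the partner of Dnmt3aos, had a mean difference of -0.25. Dnmt3aos itself was widely spread, from -3.99 to 2.77 in vehicle and from -5.31 to -0.51 with the chemicals. In both pairs the mean difference listed for the antisense gene was the lower, but the strand of the reads behind it is not known.

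The highest genes differed less from vehicle. They were Prtn3 (1.23), Clybl (1.22), Psmg4 (1.18), Nrtn (1.16), Morn2 (1.08), Cyp1a1 (1.07), Rras (1.03), Gm9199 (1.02), Cort (1.02) and Wdr54 (0.93), given as mean differences. None of them lay above every vehicle library in all 7 chemicals. Nrtn, which encodes the growth factor neurturin, ranged from 0.39 with fosthiazate to 1.45 with thiophanate and did not pass the highest vehicle library at 1.68 with any chemical. Cyp1a1, the best known target of the aryl hydrocarbon receptor, was highest with azinphos-methyl at 1.66 and lowest with cyhalofop-butyl at -0.063. The 5 genes that lay above every vehicle library differed by less: Polr2e by 0.63, Dpysl2 by 0.53, Map1lc3a by 0.43, Sepw1 by 0.41 and Fth1 by 0.26. After removal of transcript length and GC content Polr2e differed by 0.47, Dpysl2 by 0.63 and Map1lc3a by 0.15, and Sepw1 (0.11) and Fth1 (0.042) were no longer called. Of the 10 highest genes, Prtn3, Clybl, Psmg4, Nrtn, Morn2, Cyp1a1, Rras and Cort lost their call in the same way, Wdr54 kept it at 0.91, and Gm9199 had no annotation. The 5 genes encode a shared polymerase subunit, a protein of axon growth, an autophagy protein, a selenoprotein and ferritin heavy chain. Fth1 may share reads with near-identical copies and is uncertain.

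Among glutamate receptors the differences were unequal. Of 6 measured NMDA receptor genes 3 were called lower, Grin2b, Grin2a and Grin3a (-0.32), and none higher. Of all genes 15.9% were called lower and 11.1% higher. The highest difference in this list was 0.58, in a gene that was not called. After removal of transcript length and GC content, 2 NMDA receptor genes were called lower and 1 higher, where 6.38% and 3.98% of all annotated genes were. Grin1, the obligatory subunit gene, differed by 0.068 and was not called, and Grin2d differed by 0.30 and was not called. Of 11 AMPA, kainate and delta receptor genes 4 were called lower, among them Grik3 (-0.25), Gria2 (-0.23) and Gria4 (-0.19), and 1 higher, Grik5 (0.18). Of 7 metabotropic receptor genes 3 were called lower and none higher. Grm3 was the lowest of these at -1.23, from -1.77 with metsulfuron to -0.46 with methidathion, and only methidathion was not below the vehicle minimum of -0.75. The medians of these 3 lists were -0.12, -0.18 and -0.13, where the median of all genes was 0.017.

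Of 11 acetylcholine receptor genes 4 were called lower and none higher. These were Chrm5 (-1.02), Chrm2 (-0.97), Chrna7 (-0.69) and Chrm3 (-0.26), and the median of the list was -0.13. Chrm5 was 0.17 with boscalid and -2.72 with cyhalofop-butyl, so it was not low throughout. Of 16 genes of GABA and glycine receptors 6 were called lower and none higher, with a median of -0.067. Gabrg3 (-1.25) and Gabrb1 (-0.94) differed most, whereas Gabrb2 (-0.40) was below every vehicle library in all 7. Gabrb2 differed by -0.082 and was not called after removal of transcript length and GC content. Gabbr2 (-0.45), which encodes a subunit of the metabotropic GABA receptor, was below them in 6. Of 45 genes of monoamine, purine, opioid and peptide receptors 6 were called lower, among them Adra1a (-1.02), Mc4r (-0.73) and Htr2a (-0.73), and none higher. Of all genes 15.9% were called lower and 11.1% higher, so the share called lower in this list was near that of all genes. After removal of transcript length and GC content 6 of the 45 were called lower and 1 higher. Of all annotated genes 6.38% were then called lower and 3.98% higher.

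Voltage-gated potassium channels were the channel list with the most calls. Of 35 measured genes 16 were called lower and 3 higher, where 15.9% and 11.1% of all genes were, and the median was -0.25. Kcnh5 (-1.54), Kcnq3 (-1.46), Kcng3 (-1.41), Kcna3 (-1.37), Kcnh7 (-1.33) and Kcnb2 (-0.93) were lowest. Kcnq3, whose product carries the M-current that limits repetitive firing, was -2.65 with metsulfuron and -0.17 with cyhalofop-butyl, so its size differed between these libraries. The 3 genes called higher were Kcna5 (0.90), Kcns1 (0.72) and Kcnh2 (0.29), and only Kcns1 was above the vehicle median in all 7.

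Of 24 other potassium channel genes 8 were called lower and none higher, where 15.9% and 11.1% of all genes were. Kcnma1 (-1.01), the large-conductance calcium-activated channel, and Kcnj6 (-0.89), a channel opened by G proteins, were the lowest. Of 30 sodium, calcium and HCN channel genes 11 were called lower and none higher, with a median of -0.18. Scn2a1 (-0.38), a sodium channel of excitatory neurons, lay below all vehicle libraries in all 7 but differed by -0.057 and was not called after that removal, and Cacna1e (-0.59) and Scn3a (-0.37) did so in 6.

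Genes of the synapse itself were counted in 3 lists, where 15.9% of all genes were called lower and 11.1% higher. Of 41 synaptic adhesion genes 27 were called lower and none higher, led by Il1rapl1 (-1.15), Cntnap5c (-0.99) and Ncam2 (-0.80). Of 26 postsynaptic scaffold and signalling genes 15 were called lower and none higher. Camk4 (-0.65), a calcium-dependent kinase of the nucleus, and Dlgap2 (-0.64) were lowest there, followed by Nos1 (-0.54) and Shank2 (-0.52). Of 42 genes of vesicles and release 15 were called lower and 6 higher, with Sv2c (-1.03) and Pclo (-0.87) lowest. Pclo, a giant scaffold of the presynaptic active zone, was below every vehicle library in all 7, and stayed called at -0.28 after the removal. The medians of the 3 lists were -0.22, -0.26 and -0.077. After removal of transcript length and GC content, 9, 8 and 9 of their genes were called lower and 1, 0 and 2 higher. Of all annotated genes 6.38% were then called lower and 3.98% higher.

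Genes of energy metabolism and protein turnover lay on the other side, where 11.1% of all genes were called higher. Of 78 nuclear genes of the respiratory chain 33 were called higher and none lower, with a median of 0.26, led by Ndufa3 (0.81) and Ndufs3 (0.54). Of 18 glycolysis genes 10 were called higher and none lower, with a median of 0.29. Ldha, lactate dehydrogenase A, differed by 0.51 and was above the vehicle median in all 7. Of 35 proteasome genes 18 were called higher and none lower, of 71 cytoplasmic ribosomal protein genes 16 and none, and of 73 mitochondrial ribosomal protein genes 19 and 2. Ribosomal protein genes have many near-identical copies, which makes them uncertain where reads could be split. Medians of these 3 lists were 0.22, 0.25 and 0.23. After removal of transcript length and GC content, 4 glycolysis, 1 proteasome, 3 cytoplasmic ribosomal and 4 mitochondrial ribosomal genes were called higher. Of all annotated genes 3.98% were then called higher, and the shares in the proteasome and both ribosomal lists were near that. The medians of these 4 lists were 0.16, 0.058, 0.049 and 0.049. No library left the vehicle range for glycolysis except methidathion at 0.46, just above the highest vehicle library.

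Of 21 cholesterol synthesis genes 8 were called higher and none lower, with Pmvk (0.55), Ebp (0.53) and Mvd (0.51) highest. Of all genes 11.1% were called higher and 15.9% lower. Of 15 genes of the ATF4 stress response 7 were called higher and 1 lower, among them Chac1 (0.55), Cebpb (0.48) and Atf5 (0.38). None of the 15 was called in either direction after removal of transcript length and GC content, and the median moved from 0.22 to 0.11. Of 16 NRF2 antioxidant genes 4 were called higher and 1 lower, and Gstm1 (0.32) was the highest and Gclm (-0.32) the lowest of those called. Heat shock and chaperone genes gave 1 call of 18, Hsp90ab1 (0.086). Of 15 p53 target genes 2 were called higher and 3 lower. Of 22 immediate early genes 1 was called higher and 4 lower, with Egr3 (-0.49) and Egr1 (-0.36) lowest. The shares called lower were near that of all genes for p53 targets and immediate early genes. They were below it for the cholesterol, ATF4, NRF2 and heat shock lists. After the same removal no p53 target was called, and 2 immediate early genes were called lower and none higher. In the NRF2 and heat shock lists 2 genes each were then called higher and none lower, where 3.98% and 6.38% of all annotated genes were. Of 5 genes driven by the aryl hydrocarbon receptor only Cyp1a1 was called.

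**Figure D2:**
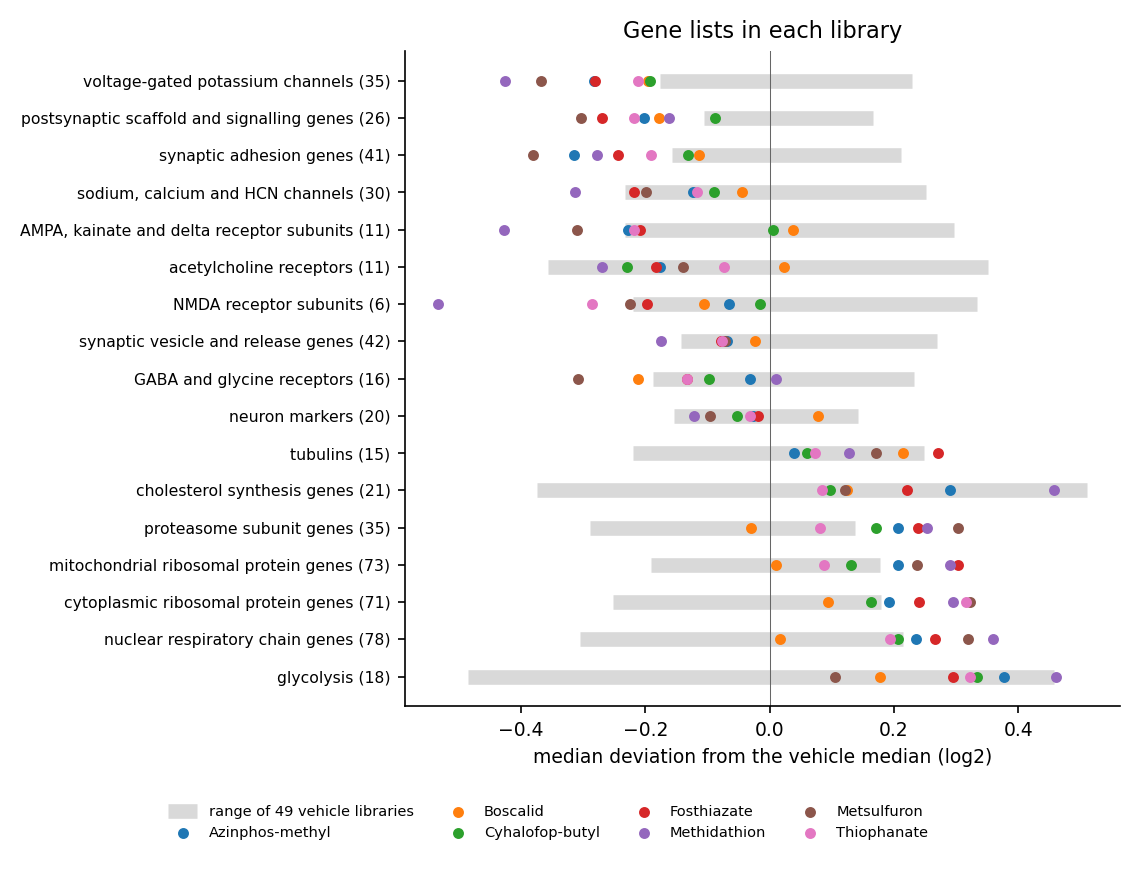
Median deviation from the vehicle median over the genes of each list (x axis, log2), with the number of measured genes in parentheses, a coloured point for each of the 7 chemicals and a grey bar for the range of 49 vehicle libraries. All 7 chemicals lie below the vehicle range for voltage-gated potassium channels, with medians of -0.43 to -0.19, whereas most lists overlap with vehicle.

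The genes that encode the known targets were examined for the chemicals that have one in animals. Ache, which encodes acetylcholinesterase, differed by 0.30 and was not called. With the 3 organophosphates it was 0.32, 0.26 and 0.53, inside the vehicle range of -0.55 to 0.84. Sdhb (0.47), Sdhc (0.22) and Sdhd (0.16), subunits of succinate dehydrogenase, were called higher, and Sdha (-0.0022) was not called. With boscalid itself, whose target they form, Sdhb was -0.30, the lowest of the 7. Acaca, acetyl-CoA carboxylase, differed by 0.16 and was not called. Among the 7 measured target genes 3 were called higher and none lower, where 11.1% and 15.9% of all genes were. Of 15 tubulin genes 4 were called higher and none lower, with Tuba1a (0.23) the highest of those called. After the removal of transcript length and GC content described further on, 2 of the 7 target genes were called higher and none lower. No tubulin gene was then called higher and 3 were called lower, where 3.98% and 6.38% of all annotated genes were. The median of the tubulin genes moved from 0.12 to -0.015.

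Markers of cell types were looked at because cortical cultures also hold glia and other cells. Of 20 neuron markers 6 were called lower and 1 higher, where 15.9% and 11.1% of all genes were. Dcx (-0.53), doublecortin of young neurons, was lowest and Eno2 (0.34), neuron-specific enolase, highest. After removal of transcript length and GC content 2 neuron markers were called lower and 2 higher, where 6.38% and 3.98% of all annotated genes were. The median of the neuron markers lay between -0.12 and 0.078 with the chemicals, inside the vehicle range of -0.15 to 0.14. Of 12 astrocyte markers 2 were called lower, of 8 microglia markers 1 higher and of 7 oligodendrocyte lineage markers 1 lower. Of 12 vascular and fibroblast markers none was called and of 17 proliferation markers 1 was called lower. After the same removal no astrocyte, microglia or vascular marker was called, and 1 oligodendrocyte lineage and 1 proliferation marker were called lower. The list medians of astrocyte, oligodendrocyte, vascular and proliferation markers stayed inside the vehicle range in all 7 libraries. Those of microglia markers ran from -0.76 to 0.46 against -0.68 to 0.42 in vehicle. Levels are not given, so it cannot be said which markers were near 0, and their part in the results was not tested.

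The differences were ordered by transcript length. With the longest annotated transcript of each gene, 259 genes had transcripts over 10 kb, and 195 of them (75.3%) were called lower and none higher. Of the genes between 8 and 10 kb 66.9% were called lower, of 1052 genes between 6 and 8 kb 50.3%, and of 2641 genes between 3 and 4 kb 8.52%. Calls in the other direction were most frequent among short transcripts, at 26.5% of those under 1 kb and 26.1% of 2320 genes between 1 and 2 kb. The median difference was 0.24 under 1 kb, 0.013 between 3 and 4 kb and -0.38 over 10 kb. The paper reports significantly lower RNA integrity numbers for this cluster, with an average that it considers high enough. The part of RNA integrity in this order was not tested, since no value of it was analysed for these libraries.

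This order was present in each library. The median deviation of transcripts over 10 kb was -0.53 with metsulfuron, -0.41 with fosthiazate, -0.40 with azinphos-methyl, -0.38 with methidathion, -0.34 with cyhalofop-butyl, -0.32 with thiophanate and -0.30 with boscalid. All were below the lowest vehicle library at -0.22. For transcripts under 1 kb the 7 values ran from 0.14 with cyhalofop-butyl to 0.30 with metsulfuron, above the highest vehicle library at 0.098. Vehicle libraries also varied along this axis, and those at its other end reached 0.32 over 10 kb.

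**Figure D3:**
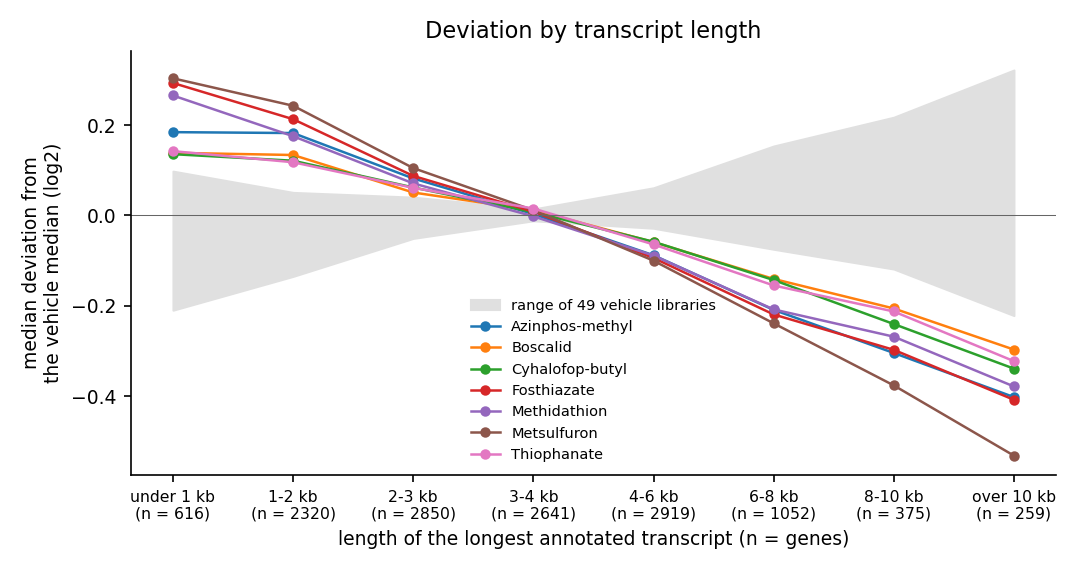
Median deviation from the vehicle median (y axis, log2) for genes in 8 classes of transcript length (x axis, with the number of genes), one line for each of the 7 chemicals and a grey band for the range of 49 vehicle libraries. Each line goes from between 0.14 and 0.30 under 1 kb to between -0.53 and -0.30 over 10 kb and leaves the band at both ends.

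The same order was found for other measures of length. Genes with an annotated 3' untranslated region over 4 kb were called lower in 62.5% of 861 cases and those with one under 0.5 kb in 7.82% of 3185. Coding lengths over 4.8 kb gave 53.2% of 600 genes and those under 0.6 kb 5.81% of 1739. By the span of the gene on the chromosome, 43.5% of 825 genes over 200 kb and 5.41% of 3289 genes under 10 kb were called lower. Span and transcript length go together, so they were also looked at jointly. Among genes spanning over 100 kb, the median difference was 0.053 with transcripts under 3 kb, -0.098 between 3 and 6 kb and -0.26 over 6 kb. Among genes spanning under 30 kb it was 0.16, 0.0079 and -0.14. By GC content of the transcript, 32.5% of 1229 genes under 42% GC were called lower and 4.23% of 1513 genes over 58%.

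To give each library 1 value, the median deviation of the genes with transcripts over 8 kb was taken minus that of the 2936 genes with transcripts up to 2 kb. This value was -0.70 with metsulfuron, -0.57 with fosthiazate, -0.52 with azinphos-methyl, -0.50 with methidathion, -0.41 with cyhalofop-butyl and -0.37 with both boscalid and thiophanate. Vehicle libraries lay between -0.21 and 0.41 with a median of -0.0068 and none overlapped with the 7. The vehicle library at 0.41 stood apart from the next at 0.22, and without it 2091 genes were called lower and 1455 higher. Of the 290 other chemicals 3 were below the highest of the 7 and none below metsulfuron.

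Transcript length and GC content were therefore removed from each library with splines over the 12612 genes (94.8%) for which the annotation gave both. Before removal 2024 of these genes were called lower and 1431 higher, and after it 6.38% were called lower and 3.98% higher. The genes called lower both times were 34.4% of those called lower before and 86.5% of those called lower after. For genes called higher these shares were 16.4% and 46.8%. Grin2b kept a difference of -2.48, Kcna3 one of -1.59 and Grin2a one of -1.22, and all remained called. The genes of the lists moved differently. Voltage-gated potassium channels had 10 of 35 genes called lower after removal, synaptic adhesion genes 9 of 41, postsynaptic genes 8 of 26, sodium, calcium and HCN channels 4 of 30 and AMPA, kainate and delta receptors none of 11. Respiratory chain genes had 2 of 78 called higher after removal, and their median moved from 0.26 to 0.066. That of cholesterol synthesis genes stayed near its first value, from 0.21 to 0.22. The part of transcript length in the differences of single genes was not tested beyond this, and annotated lengths can differ from those of the transcripts in these cells.

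The number of genes outside the vehicle range differed between the 7 chemicals. Metsulfuron placed 10.2% of all genes below every vehicle library and 6.81% above, fosthiazate 7.75% and 3.81%, azinphos-methyl 7.68% and 4.62%, and methidathion 6.60% and 4.44%. Boscalid placed 5.44% and 2.74%, thiophanate 5.34% and 4.13%, and cyhalofop-butyl 5.17% and 1.96%. Other chemicals with 1 library each had between 0.842% and 11.8% of genes below every vehicle library, with a median of 2.27%, and between 0.173% and 6.01% above, with a median of 1.92%. Metsulfuron was thus within the range of the other chemicals below vehicle and beyond it above vehicle, and the other 6 members were within both ranges.

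Likeness was measured by the Spearman correlation across the 5121 variably expressed genes on which the authors clustered, those with an SD over 0.1 on the log10 scale. The pair most alike was fosthiazate with metsulfuron at 0.32, and the pair least alike methidathion with thiophanate at 0.12. The mean correlation of a chemical with the other members was 0.25 for metsulfuron, 0.24 for fosthiazate, 0.23 for azinphos-methyl, 0.20 for cyhalofop-butyl, 0.18 for both boscalid and methidathion and 0.16 for thiophanate. Just outside the cluster, spiroxamine at 10 μM had 0.19, cyproconazole at 1 μM 0.14 and fentin at 0.01 μM 0.14. The mean of spiroxamine was thus higher than those of 3 members. It was taken over all 7 members, whereas that of a member left the member itself out. The small gaps to boscalid and methidathion are therefore not read as an order. Spiroxamine had values of -2.4 for Grin2b, -2.12 for Grin2a and -1.59 for Kcna3, and its difference between long and short transcripts was -0.44.

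Over the 290 other chemicals, this likeness went with the difference between long and short transcripts, with Pearson's r of -0.90 and Spearman's rho of -0.87. These are descriptions, since both values come from the same libraries and the same members. Over the 4670 variable genes with both annotations, the median correlation of the 21 pairs of members was 0.22 as deposited and 0.14 after transcript length and GC content had been removed, with the lowest pair at 0.070.

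**Figure D4:**
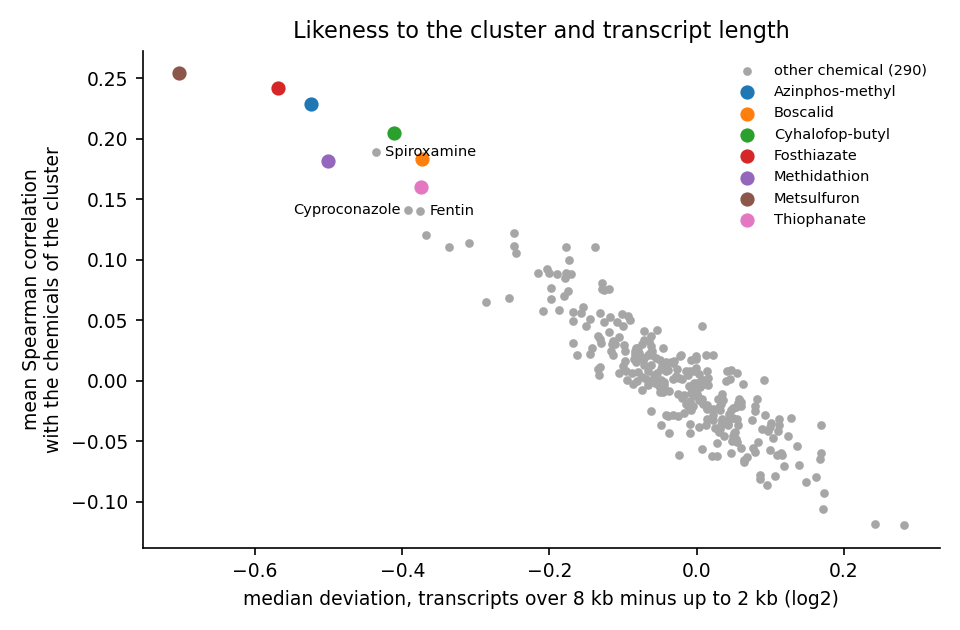
Mean Spearman correlation with the chemicals of the cluster (y axis, each member without itself) against the median deviation of transcripts over 8 kb minus that of transcripts up to 2 kb (x axis, log2), with 290 other chemicals in grey. The 7 members lie at the upper left, from metsulfuron at -0.70 to thiophanate at -0.37, with spiroxamine at -0.44 among them.

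Libraries with numbers near those of the members, topotecan left out, did not reach their values. All were of chemicals that the grouping had left out on these same values, so their distance follows in part from the grouping. No test was drawn from it. The labels number the libraries, without saying what the number stands for. Topotecan libraries, some of which also had such numbers, were not included. Of the 36 other libraries within 3 numbers of a member, all 36 had a higher Grin2b than the highest member. They ran from -1.29 to 0.79 with a median of 0.084. All 36 also had a smaller difference between long and short transcripts, from -0.31 to 0.28. The neighbours of methidathion included metam-sodium at -0.95 and metiram-zinc at -1.04 for Grin2b, and those of cyhalofop-butyl included asulam at -1.29.

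Related chemicals outside the cluster were set beside its members, all at 10 μM. The authors' grouping had left them out on these same values, so that their distance from the members follows in part from the grouping, and no test was drawn from it. The 33 other organophosphates had a Grin2b of -0.014 ± 0.32 (SD, n = 33 chemicals), from -0.88 to 0.87, where vehicle had 0.062 ± 0.38 (SD, n = 49). Of these 33 chemicals 1 was below the lowest vehicle library and 14 were below the vehicle median. The 3 organophosphates of the cluster were at -2.96, -2.86 and -1.33.

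The 6 other sulfonylureas lay between -0.14 and 0.44 for Grin2b, against -5.39 with metsulfuron. The 5 other aryloxyphenoxypropionates lay between -0.40 and 0.36, against -2.49 with cyhalofop-butyl. The succinate dehydrogenase inhibitors carboxin and flutolanil had -0.32 and 0.37, against -2.01 with boscalid. Benomyl and thiabendazole, of the benzimidazole type, had -0.41 and 0.43, against -1.31 with thiophanate. Members of a class at the same dose were thus found both inside and outside the cluster.

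The other genes separated the organophosphates less clearly. Kcna3 ran from -0.54 to 0.53 in the 33 chemicals outside the cluster, above the 3 members at -1.92, -1.37 and -0.78. Grin2a ran from -1.38 to 1.33 and overlapped with the members at -1.47, -1.19 and -0.58. Chrm2 ran from -1.04 to 0.73 and Chrna7 from -1.02 to 0.57, and both overlapped with the members. For Chrm2, benomyl and thiabendazole were at -0.78 and -0.51, both lower than thiophanate at -0.32.

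Close structural relatives were set side by side as single libraries at 10 μM, without a test. Azinphos-methyl and methidathion are O,O-dimethyl phosphorodithioates, as are dimethoate and malathion. Grin2b was -2.86 and -1.33 with the first pair and -0.020 and 0.87 with the second. The difference between long and short transcripts was -0.52 and -0.50 against -0.0087 and 0.12. Phosalone and disulfoton, which carry ethyl in place of methyl groups on the phosphorus, had a Grin2b of -0.33 and 0.19. Fosthiazate and ethoprop both carry sulfur-linked alkyl groups on the phosphorus, and Grin2b was -2.96 with the former and 0.022 with the latter. Tribenuron, which differs from metsulfuron by a methyl group on the urea bridge, had 0.44 where metsulfuron had -5.39.

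**Figure D5:**
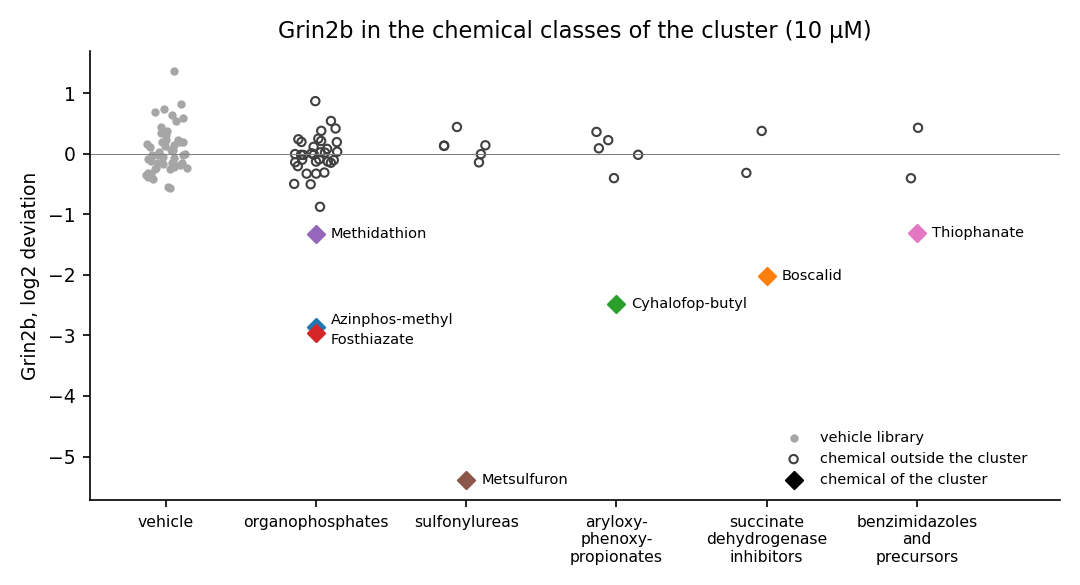
Grin2b (y axis, log2 deviation) in vehicle libraries (grey points), in chemicals outside the cluster by class (open circles) and in the 7 chemicals of the cluster (coloured diamonds), all chemicals at 10 μM. The chemicals had been grouped on these values, and each diamond lies below every open circle of its class, and the lowest open circle is an organophosphate at -0.88.

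Other chemicals reached comparable values of the marker genes. For Grin2b, 4 of the 290 lay below thiophanate, the highest member, namely spiroxamine (-2.4), fentin at 0.01 μM (-1.90), camptothecin at 0.3 μM (-1.85) and benfluralin (-1.46), and none lay below metsulfuron. For Kcna3, 4 lay below the highest member, with spiroxamine lowest at -1.59. For Grin2a, 49 did so and 4 lay below the lowest member. Chrm2 and Chrna7 separated the members least, with 83 and 192 of the other chemicals below the highest member and none below the lowest.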

How the data were processed

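RNA-seq libraries of 7 grouped chemicals (n = 7), 49 vehicle libraries and 290 other chemicals were assigned by their labels. Per the labels the authors used the TruSeq kit, TopHat and the mm9 build. They computed RPKM on RefSeq genes, and the deposited log10 values were quantile-normalized, median-centred and freed of batch effects with a mixed model. These steps leave deviations, so depth, levels and batches cannot be examined. The membership and gene lists were chosen with earlier results of these data known. The deposited values were converted to log2 and analysed in R 4.3.3 with limma 3.58.1 (variance trend, Benjamini-Hochberg over 13304 genes, threshold 0.05, two-sided), tested first on simulated data. Chemicals with several libraries entered as their median. The labels do not say whether libraries came from separate cultures, so calls measure only the spread between libraries. The tests planned for related chemicals outside the cluster are not reported, since the grouping chose those chemicals on the same values. Alternatives were a threshold of 0.01, variable genes only, another reference, re-centring, no variance trend, removal of transcript length and GC content by splines of 4 degrees of freedom, differences of medians, and leaving out each chemical or 1 vehicle library. Lengths came from a GENCODE annotation of mm9, in which 12388 genes matched by symbol and 644 by another symbol. Descriptions used Python 3.11.15, numpy 2.4.6 and pandas 2.3.3. Genes named were Grin2b, Grin2a, Kcna3, Chrm2 and Chrna7, called genes of the receptor and channel lists, known targets, the 10 lowest and 10 highest differences on 1 side of the vehicle median in all 7 libraries, and up to 4 called genes of each other list. Grin1, Grin2d, Xist, Dnmt3a and the 5 genes above every vehicle library were added after their values were seen. The tables of counts for fenamidone and pyraclostrobin were not used here. Some genes that met this rule are not reported here.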

Additional observations from a re-analysis of the deposited data

Results flagged for a closer look

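Values of the 7 libraries were examined for a library far from the others of the group with Dixon's ratio, over 59 values: the genes given, the 10 lowest and 10 highest genes, the list medians and the difference between long and short transcripts. The limit used marks about 1 in 20 unselected groups by chance, and 5 were marked. The 10 lowest and 10 highest genes were chosen on these same libraries, and all values share the 7 libraries. That rate therefore does not hold here, and nothing is read from the number marked. Metsulfuron was far below the others for Grin2b at -5.39 (others from -2.96 to -1.31), Zbtb37 at -3.86 (others from -2.17 to -1.55), Dnajb14 at -4.13 (others from -2.13 to -0.85) and Tcp11l1 at -3.96 (others from -1.72 to -1.08). Methidathion was far below the others for the median of the synaptic vesicle and release genes at -0.17 (others from -0.078 to -0.023). Metsulfuron also had the largest difference between long and short transcripts, at -0.70. Each chemical had 1 library, so whether these values belong to the chemical or to the library cannot be told apart.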

How the results depend on the processing

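At a threshold of 0.01 the share of genes called higher was 5.66% in place of 11.1%, and that called lower stayed within 1.5 times. Among variably expressed genes alone 6.87% were called lower and 3.53% higher, and 7.71% and 5.58% lay below or above the vehicle median in all 7 libraries. With transcript length and GC content removed these shares were 6.38%, 3.98%, 7.45% and 5.9%. The same removal, added after seeing the data, took the median correlation between members from 0.22 to 0.14. The other 290 chemicals as reference, re-centred libraries, no variance trend and the fit without the vehicle library that stood apart left the shares they were run for within 1.5 times. Without 1 chemical at a time, 13.3% to 15.3% of genes were called lower and 8.16% to 10.5% higher, 15.1% to 16.7% lay below the vehicle median in every remaining library and 10.9% to 12.5% above it, and Grin2b differed by -2.90 to -2.22, least without metsulfuron. Grin2b, Grin2a, Kcna3, Chrm2 and Chrna7 kept their direction under each alternative run, and their call when transcript length and GC content were removed.

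The differences of Grin2b between classes outside the cluster and vehicle, with no test drawn, turned sign with other chemicals as reference, to 0.072 for organophosphates, 0.13 for aryloxyphenoxypropionates, 0.11 for succinate dehydrogenase inhibitors and 0.088 for benzimidazoles, and the cause was not tested. Without 1 chemical at a time they ran from -0.013 to 0.10 for sulfonylureas (lowest without tribenuron), from -0.090 to 0.10 for aryloxyphenoxypropionates (0.0043 without fenoxaprop-ethyl, 0.10 without fluazifop-P-butyl), from -0.38 to 0.31 for succinate dehydrogenase inhibitors (0.31 without carboxin) and from -0.47 to 0.36 for benzimidazoles (0.36 without benomyl). No paired analysis was possible because each chemical had 1 library and no replicate numbers shared with vehicle. Without counts, what depth limits is unknown.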

Other observations

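Zinc finger genes whose symbols begin with Zfp were a large group that the comparisons above do not describe. Of 330 measured genes 82 were called lower and 16 higher with the 7 chemicals, where 15.9% and 11.1% of all genes were, with a median difference of -0.11 where that of all genes was 0.017. The list median was between -0.19 and -0.045 with the chemicals and between -0.080 and 0.083 with vehicle, so the groups overlapped. After transcript length and GC content had been removed, 44 were called lower and 6 higher, where 6.38% and 3.98% of all annotated genes were, with a median of -0.047.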
